A study of Mus musculus with 20 samples.

Results

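Neurogenic cells of control mouse retina were compared between the P5 and the P2 libraries. They are the cells to which the authors gave the type name Neurogenics, in the 4 control libraries of each stated age, and their counts of unique molecular identifiers (UMIs, each standing for 1 captured RNA molecule) were summed per library. There are 5227 such cells, 3516 from P2 and 1711 from P5, of 9239 neurogenic cells and 79009 cells in the whole series and of 49665 control cells. The P2 controls 1 to 4 hold 1733, 448, 606 and 729 of them, and the P5 controls 1 to 4 hold 287, 346, 887 and 191. All 8 libraries come from wildtype CD1 mouse retina that was cultured as explants and electroporated with pCAGIG, the construct that expresses GFP alone, and GFP-positive cells were isolated before 10x Genomics 3′ sequencing. In the other libraries of the series, which are not used here, the titles name MEIS1, MEIS2 or both. P2 and P5 are given as postnatal days in the sample labels, while the series design text speaks of days of treatment and names other factors. Age, culture and library preparation therefore cannot be told apart. The labels do not say whether the 4 libraries of an age come from separate animals, so the tests measure the spread between libraries.

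By the usual meaning of the term, neurogenic cells are progeny of retinal progenitor cells that are leaving the cell cycle to become neurons. They carry basic helix-loop-helix factors such as Atoh7, Neurod1 and Neurod4, and Notch ligands of the Delta family that keep neighbouring cells in the progenitor state. In the mouse retina, progenitors make rods over a long period around birth, bipolar cells mostly in the days after it, and Müller glia last. Otx2 precedes both photoreceptors and bipolar cells, and Prdm1 holds cells to the photoreceptor path.

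Depth and labels differed between libraries in ways that touch the results. Summed UMIs of neurogenic cells ranged from 2502725 to 17681622 per library. The median neurogenic cell had 9470, 5526.5, 3938 and 5694 UMIs in P2 controls 1 to 4 and 16656, 16284, 7686 and 17277 in P5 controls 1 to 4 (two-sided exact permutation p = 0.0571). Mitochondrial genes took 2.01 to 3.74% of neurogenic UMIs at P2 and 3.35 to 7.69% at P5, with the highest value in P5 control 1. The cell barcodes of all 8 libraries start with another library name than the title, and in P2 control 1 that name belongs to a MEIS combination library. Summed over 15 markers of the neurogenic state, none of them at 0, neurogenic cells averaged 6373 CPM (a gene's UMIs scaled to a fixed library total) at P2 and rods averaged 6367. The same sum was 1625 in progenitors and 2037 in amacrine cells. At P5 it was 3877 (2259 to 5176) in neurogenic cells, 894 (344 to 1473) in progenitors, 1594 (632 to 3686) in amacrine cells and 4146 (2302 to 6209) in rods. The list thus sets neurogenic cells apart from progenitors at both ages, from amacrine cells at P2 alone, and at neither age from rods. From P2 to P5 neurogenic cells went from 2072 to 3625 CPM of 12 progenitor markers, whose ranges of 1542 to 2785 and 2557 to 4403 overlap, and from 480 (404 to 614) to 3279 (2612 to 4419) CPM of 6 Müller glia markers, none of these at 0. No more than 30 barcodes were shared by any pair of control libraries.

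Neurogenic cells made up 12.2% ± 4.03 (SD, n = 4) of all cells of a P2 control library and 9.64% ± 4.51 (n = 4) at P5, a difference within the spread between libraries (two-sided exact permutation p = 0.371). Set against progenitors alone the picture differed. Of neurogenic and progenitor cells together, 37.9% ± 4.41 (n = 4) were neurogenic at P2 and 53.2% ± 6.36 (n = 4) at P5, and all 4 P5 libraries lay above all 4 P2 libraries (exact permutation p = 0.0286, the smallest that 4 against 4 libraries allow). Progenitors themselves took 20.4% ± 6.96 of cells at P2 and 9.23% ± 5.91 at P5 (exact permutation p = 0.0857). Cells named bipolar took 0.262% ± 0.0876 at P2 and 15.7% ± 6.30 at P5, again without overlap (exact permutation p = 0.0286). How cells of different types survive dissociation and isolation was not tested.

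Within neurogenic cells, edgeR's quasi-likelihood test compared the 4 P5 with the 4 P2 libraries for 11984 genes. It called 1044 genes at a Benjamini-Hochberg adjusted p under 0.05, which is 8.71% of the genes tested. Of these, 731 were higher at P5 (6.1%) and 313 lower (2.61%). All 4 P5 libraries lay above all 4 P2 libraries in 681 called genes and below them in 289, and in the other 74 called genes the ages overlapped. Over all 11984 genes tested, called or not, 1018 lay above in this way and 687 below. A lack of overlap is thus no support apart from the call. At least a 4-fold change was found for 257 called genes that rose and 47 that fell. The median difference over all genes tested was -0.03 on the log2 scale. Without TMM scaling, which moved the median of all genes by 0.11, 815 genes were higher and 192 lower. Leaving out P2 control 1 raised the count to 1631, with 962 higher and 669 lower. P5 cells held more UMIs, so cells of 4000 to 10000 UMIs were also compared, an alternative chosen after the data were seen that leaves 32, 39 and 558 cells in P5 controls 1 to 3 and leaves out P5 control 4. There 192 of 10193 genes tested were called higher and 32 lower. Of 71 chosen genes with a value there 21 that pass over all cells did not pass, with the same direction. They are Angpt1, Ccnd1, Dll4, Dtx4, Ebf1, Epha8, Gad2, Gap43, Gapdh, Grik3, Lmo1, Mfng, Neurod1, Nfib, Nfix, Olig2, Pcdh17, Prdm8, Prox1, Rax and Sox11. Fewer cells and equal depth cannot be told apart in these lost calls. Levels below are CPM of the summed neurogenic counts after TMM scaling, and in sums of cells a change in the number of cells that carry an RNA and in its amount per cell cannot be told apart.

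Among the proneural factors, Atoh7 showed the steepest fall. Atoh7, the helix-loop-helix factor that gives progenitors the competence to form retinal ganglion cells, stood at 123, 98.4, 151 and 279 CPM in P2 controls 1 to 4. In P5 controls 1 to 4 it stood at 7.02, 3.41, 15.9 and 2.56 CPM. Every P5 library lay below every P2 library, and the highest P5 level was that of P5 control 3. The gene (chromosome 10, 63099651 to 63101279, mm10, plus strand) fell by 4.42 on the log2 scale (SE 0.52, adjusted p = 0.000322), and fell by 5.17 when P5 control 3 was left out. Neurod1, a factor of photoreceptor and amacrine differentiation, stood at 1080.5, 1300.3, 1104.4 and 2619.3 CPM at P2 and at 653, 220, 692 and 724 CPM at P5. The groups did not overlap, and the fall of 1.42 (SE 0.40, adjusted p = 0.0486) only just passed the threshold. It no longer passed when any 1 library other than P2 control 1 was left out, with adjusted p between 0.0558 and 0.145, nor without TMM scaling (0.0671) or without the cells of the highest doublet scores (0.0511). Olig2, which marks progenitors in their last divisions, fell by 0.81 (adjusted p = 0.0199). Its call was lost without P2 control 3 or 4 or P5 control 1, 2 or 4 (adjusted p at most 0.0658), without TMM scaling (0.0607) and with libraries thinned to the smallest total (0.0667).

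Neurod4, Neurog2, Insm1 and Hes6 did not pass edgeR's test, and DESeq2 called Neurod4 (adjusted p = 0.0165) and Hes6 (0.0393). Neurod4, a factor of bipolar cell formation, averaged 1560.1 ± 638 CPM at P2 and 802 ± 184 at P5 (log2 difference -0.96, adjusted p = 0.0906), and passed at 0.0110 without P2 control 1. Neurog2 differed by -0.44 (interval -1.37 to 0.477, adjusted p = 0.590), Insm1, a factor of neurons leaving the cycle, by -0.64 (0.280), and Hes6, which acts against Hes1, by -0.73 (0.113). Hes6 passed at an adjusted p of 0.0193 without P2 control 1. In the authors' cluster 11, one of the 2 clusters that neurogenic cells fall into, Insm1 was called lower (log2 -2.20, adjusted p = 0.000797).

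In the proneural list as a whole, 14 of 18 genes were tested, 3 were called higher and 3 lower, against 6.1% and 2.61% of all genes, and the median was -0.16. The members that rose were Bhlhe23, a bipolar and amacrine factor, and Id3 and Id4, which bind helix-loop-helix factors and block them. Bhlhe23 had 1 UMI over the 4 P2 libraries and 235 over the 4 P5 libraries, a ratio per total UMIs of 308 with a counting interval of 54.8 to 12235.

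The Notch ligands Dll3 and Dll4 fell, and the receptor Notch2 rose. Dll3, an atypical Delta protein that acts inside the signalling cell, stood at 135, 130, 139 and 147 CPM at P2. At P5 it stood at 17.9, 16.2, 56.8 and 30.2 CPM. The groups did not overlap, the P2 libraries lay close to each other, and the log2 fall was 2.18 (SE 0.34, adjusted p = 0.00189). Dll4, a ligand of newborn retinal neurons, went from 28.2, 54.8, 41.5 and 51.5 CPM to 11.3, 6.65, 17.9 and 14.2 CPM, without overlap, a fall of 1.79 (SE 0.30, adjusted p = 0.00278). Dll1, the ligand of cycling precursors, differed by -0.67 (interval -1.26 to -0.0837, adjusted p = 0.163) and passed at 0.0244 without P2 control 1. Mfng, a Fringe enzyme that modifies Notch receptors, fell by 1.03 (adjusted p = 0.00246). The receptor Notch2 rose from 2.78 ± 1.09 to 22.8 ± 10.0 CPM (log2 3.01, adjusted p = 0.000322), with its highest level in P5 control 2, and Dtx4, an E3 ligase of the pathway, rose by 2.09 (adjusted p = 0.000724). Of 24 genes of the Notch list 21 were tested, 4 were called higher and 3 lower, against 6.1% and 2.61% of all genes, and the median of -0.04 lay at that of all genes. The other members called higher were the transcriptional targets Hes1 and Hey2. No member was called higher in cells of 4000 to 10000 UMIs, where 1 was lower, against 32 of all 10193 genes tested there. None was called higher in the authors' cluster 4, where 4 were lower, against 2.04% of all genes there. In cluster 11 5 were higher and 5 lower, against 8.07% and 3.68%. In cluster 4 the values were -0.87 for Hes1 (adjusted p = 0.638) and 0.48 for Dtx4 (adjusted p = 0.527), and neither was called.

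Prdm1 led the photoreceptor precursor genes. Its protein Blimp1 represses the bipolar programme in cells that express Otx2. Prdm1 stood at 220, 223, 201 and 297 CPM in P2 controls 1 to 4 and at 30.2, 20.3, 70.8 and 41.5 CPM in P5 controls 1 to 4. All P5 libraries were below all P2 libraries, and the fall of 2.53 on the log2 scale (SE 0.33, adjusted p = 0.000577) is a 5.76-fold change. Otx2 changed less than the spread allowed to call. It stood at 1274.8, 1047.5, 865 and 1694.7 CPM at P2 and at 874, 475, 929.7 and 829 CPM at P5, so that the groups overlapped (log2 difference -0.65, interval -1.27 to -0.0372, adjusted p = 0.194). The photoreceptor factor Crx differed by -0.59 (adjusted p = 0.174), the rod factor Nrl by -0.67 (0.129) and the rod nuclear receptor Nr2e3 by -0.05 (0.939). In cluster 11 Crx was called lower (log2 -1.37, adjusted p = 0.0155). Nrl passed at 0.0166 without P5 control 1. Of 15 tested genes of the precursor list 5 were called lower, against 2.61% of all genes, and none higher, with a median of -0.65. Rax, an early eye-field homeobox gene, was among them with a fall from 440 ± 28.8 to 166 ± 29.1 CPM (log2 -1.40, adjusted p = 0.000576).

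Prdm1 and Atoh7 both fell, and a shared cause was not tested. The bases before their RefSeq start sites, in the RefSeq table for build GRCm38.p6, are shown with their E-boxes, CANNTG, the letters that helix-loop-helix proteins bind. Capitals mark every match to CANNTG, which reads the same on both strands. Bases in an annotated GENCODE exon were left out, positions count back from -1 at the base before the RefSeq start, and a match is no evidence of binding. The 134 bases nearest the Atoh7 start were left out in this way, so a nearer match there would not show.
Atoh7: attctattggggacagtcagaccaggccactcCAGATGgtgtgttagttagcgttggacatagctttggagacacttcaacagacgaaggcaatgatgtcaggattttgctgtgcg
Prdm1: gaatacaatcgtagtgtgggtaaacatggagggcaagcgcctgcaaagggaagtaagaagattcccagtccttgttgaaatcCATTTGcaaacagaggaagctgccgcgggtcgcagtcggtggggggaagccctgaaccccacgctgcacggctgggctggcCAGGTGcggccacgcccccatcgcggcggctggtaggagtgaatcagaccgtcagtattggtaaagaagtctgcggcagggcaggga
The Atoh7 stretch is chr10:63099535-63099650 on the plus strand, 116 bases upstream of the annotated gene, and holds 1 match, CAGATG at -218. Of the first RefSeq windows of 27025 gene symbols, 40.6% hold CANNTG in the same positions. The Prdm1 stretch is chr10:44458749-44458998 on the minus strand, 250 bases inside the annotated gene (44437177 to 44528501) but in no exon. It holds CATTTG at -168 and CAGGTG at -87, and 66.0% of windows hold CANNTG there. Neither gene's stretch holds TAATCC, a homeodomain motif of the Otx and Crx type, on either strand.

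**Figure D1:**
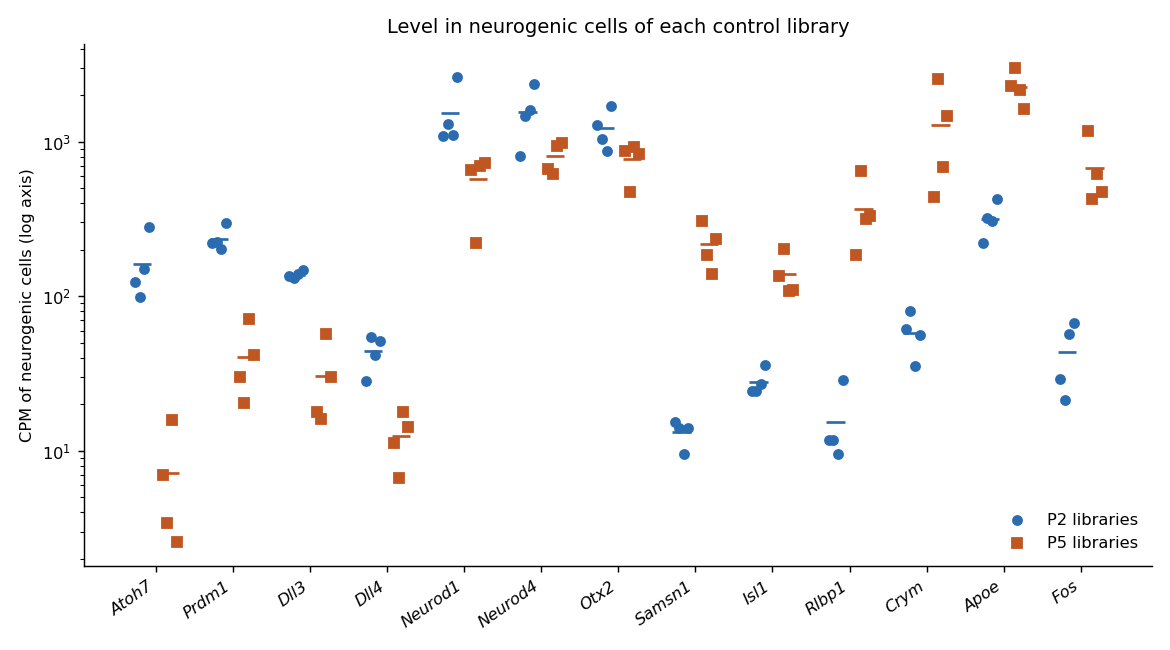
Level of 13 genes in neurogenic cells of each control library, in CPM after TMM scaling on a log axis, with P2 and P5 libraries side by side and the group mean as a dash. Atoh7, Prdm1, Dll3, Dll4 and Neurod1 lie lower in all 4 P5 libraries, Otx2 and Neurod4 overlap, and Samsn1, Isl1, Rlbp1, Crym, Apoe and Fos lie higher in all 4.

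Genes of bipolar cells rose. Samsn1, an adaptor protein gene, stood at 15.3, 14.1, 9.55 and 14.1 CPM in P2 controls 1 to 4 and at 308, 185, 140 and 236 CPM in P5 controls 1 to 4. No libraries overlapped, and the rise was 3.999 on the log2 scale (SE 0.27, adjusted p = 2.01e-05). Isl1, a LIM homeobox factor of ON bipolar, starburst and ganglion cells, went from 24.3, 24.2, 27.2 and 36.1 CPM to 135, 202, 107 and 110 CPM (log2 2.31, SE 0.24, adjusted p = 0.000178). Zfhx4 rose 9.61-fold, from 8.57 ± 2.65 to 83.3 ± 24.6 CPM (adjusted p = 3.39e-05). Scgn, a calcium-binding protein of cone bipolar cells, had no UMI in the P2 libraries and 201 at P5, so that it was at least 87.9-fold higher against a floor of 3 counts over the P2 group.

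Of 25 bipolar genes 15 were tested, 11 were called higher and none lower, against 6.1% of all genes called higher, and their median was 2.00. Bhlhe23, Cabp5, Lrit3, Irx5, Lhx4 and Prdm8 were also called higher. Prdm8, a factor that rod bipolar cells use, rose by 0.80 (adjusted p = 0.0429) and was lost when any of 4 libraries was left out, P2 controls 1 and 2 and P5 controls 2 and 4 (adjusted p 0.0570 to 0.0997), or with libraries thinned to the smallest total (0.0544). In cells of the authors' cluster 11 it was called in the other direction (log2 -2.58, adjusted p = 0.00544). In cells of 4000 to 10000 UMIs 7 bipolar genes were called higher, against 192 of all 10193 genes tested there. The summed level of the list ran from 279 to 375 CPM in P2 libraries, with Vsx1, Irx6, Grm6 and Scgn at 0, and from 1411 to 1766 CPM at P5, with no member at 0. In amacrine cells of the same libraries the sum was 278 to 641 CPM at P2 and 345 to 1129 at P5. The 8 markers chosen for bipolar cells, of which Cabp5, Lhx4 and Prdm8 were called, summed to 201 CPM (178 to 225) in P5 neurogenic cells, 159 (92.2 to 226) in amacrine cells and 228 (168 to 290) in rods. Whether RNA of bipolar cells in the P5 suspension adds to these levels was not tested. At P5 the cells that the authors named bipolar held 921 ± 113 CPM of Samsn1 and 828 ± 129 of Isl1 (n = 4, without TMM scaling), against 225 ± 73.2 and 143 ± 40.7 in neurogenic cells. Rods held 144 ± 44.1 CPM of Samsn1 at P2 and 301 ± 65.7 at P5 (n = 4).

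Genes of Müller glia rose as a group. Rlbp1 (chromosome 7, 79374870 to 79387048, minus strand), which encodes the retinaldehyde-binding protein of these cells, stood at 11.7, 11.7, 9.55 and 28.8 CPM at P2. At P5 it stood at 184, 641, 316 and 329 CPM. The lowest P5 library lay above the highest P2 library, P2 control 4, and the rise was 4.55 (SE 0.45, adjusted p = 0.000133), or 23.5-fold. Crym, a thyroid hormone-binding protein found in late progenitors, went from 61.0, 79.8, 35.3 and 56.2 CPM to 435, 2559, 682 and 1475 CPM (log2 4.47, SE 0.54, adjusted p = 0.000332). Apoe, the lipid carrier that glia secrete, went from 221, 322, 305 and 423 CPM to 2292, 3009, 2160 and 1627 CPM (log2 2.84, SE 0.29, adjusted p = 0.000150). P5 control 2 was highest for all 3 genes, and no P5 library fell among the P2 libraries. Col9a1, a collagen chain, rose by 3.80 (adjusted p = 0.000178), Sparc, a matrix protein, by 2.97 (adjusted p = 0.000212) and the receptor Gpr37 by 2.86 (adjusted p = 9.42e-05).

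Of 22 Müller glia genes 19 were tested, 17 rose and none fell, against 6.1% of all genes higher, with a median of 2.50. The summed level was 1834 to 2743 CPM in P2 libraries, with Gfap at 0, and 6729 to 14481 CPM at P5. In progenitors of the same libraries it was 8798 to 13732 and then 23977 to 37236 CPM, and in amacrine cells 681 to 954 and then 438 to 1172 CPM. The ranges of the 2 ages thus overlapped in amacrine cells and not in neurogenic cells or progenitors. Without the cells that Scrublet marked 17 members were called higher, against 765 of all 11885 genes tested. Scrublet marked 0, 3, 44 and 5 neurogenic cells in P5 controls 1 to 4, so this setting removed few P5 cells and could hardly change the calls. Without the cells of the highest doublet scores 17 members were called higher, against 744 of 11816. In cells of 4000 to 10000 UMIs 9 were, against 192 of 10193. The part of progenitor RNA in the neurogenic rise was not tested. The late progenitor list, which shares Crym, Gpr37, Clu and Dkk3 with the glial list, had 24 members tested, 11 called higher and 3 lower, against 6.1% and 2.61% of all genes, and a median of 0.58. Id3 rose from 14.9 ± 8.16 to 129 ± 64.0 CPM (log2 3.15, adjusted p = 0.00124) and the carbonic anhydrase Car2 from 81.0 ± 8.67 to 429 ± 201 CPM (log2 2.41, adjusted p = 0.000409). Among nuclear factor I genes, which late progenitors use, Nfib rose by 0.90 (adjusted p = 0.0418) and Nfix by 1.14 (adjusted p = 0.0273), and Nfia differed by 0.44 (adjusted p = 0.307). Nfib kept its call only without P2 control 1 or P5 control 3 and Nfix only without P2 control 1 or P5 control 1, and any other library left out took the adjusted p to 0.0644 to 0.105 and 0.0532 to 0.0883. With the replicate number as a block Nfix did not pass (0.0507).

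The stretches before Isl1, of the bipolar list, and Rlbp1, of the glial list, are shown with the same marking, capitals for CANNTG and for TAATCC.
Isl1: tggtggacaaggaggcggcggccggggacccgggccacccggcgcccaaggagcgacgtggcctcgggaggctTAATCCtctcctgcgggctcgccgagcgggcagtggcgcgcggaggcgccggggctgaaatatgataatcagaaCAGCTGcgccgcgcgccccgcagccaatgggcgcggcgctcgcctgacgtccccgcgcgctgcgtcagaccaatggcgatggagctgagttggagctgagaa
Rlbp1: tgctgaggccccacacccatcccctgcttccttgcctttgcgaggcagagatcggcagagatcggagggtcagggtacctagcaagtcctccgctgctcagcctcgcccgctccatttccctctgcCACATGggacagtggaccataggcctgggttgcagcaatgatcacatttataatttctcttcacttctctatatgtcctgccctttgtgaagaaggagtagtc
The Isl1 stretch is chr13:116309690-116309938 on the minus strand, 249 bases directly upstream of the annotated gene (116298281 to 116309689). It holds TAATCC at -177 and CAGCTG at -103. In the same positions 6.35% of the first RefSeq windows of all gene symbols hold TAATCC on either strand, 12.7% hold CAGCTG and 66.0% hold CANNTG. The Rlbp1 stretch is chr7:79387049-79387277 on the minus strand, 229 bases directly upstream of the annotated gene, with CACATG at -124, and 63.2% of windows hold CANNTG in those positions. The 206 bases before Samsn1, also of the bipolar list and not shown, hold no CANNTG and no TAATCC. In their positions 59.9% of windows hold CANNTG and 5.51% hold TAATCC.

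**Figure D2:**
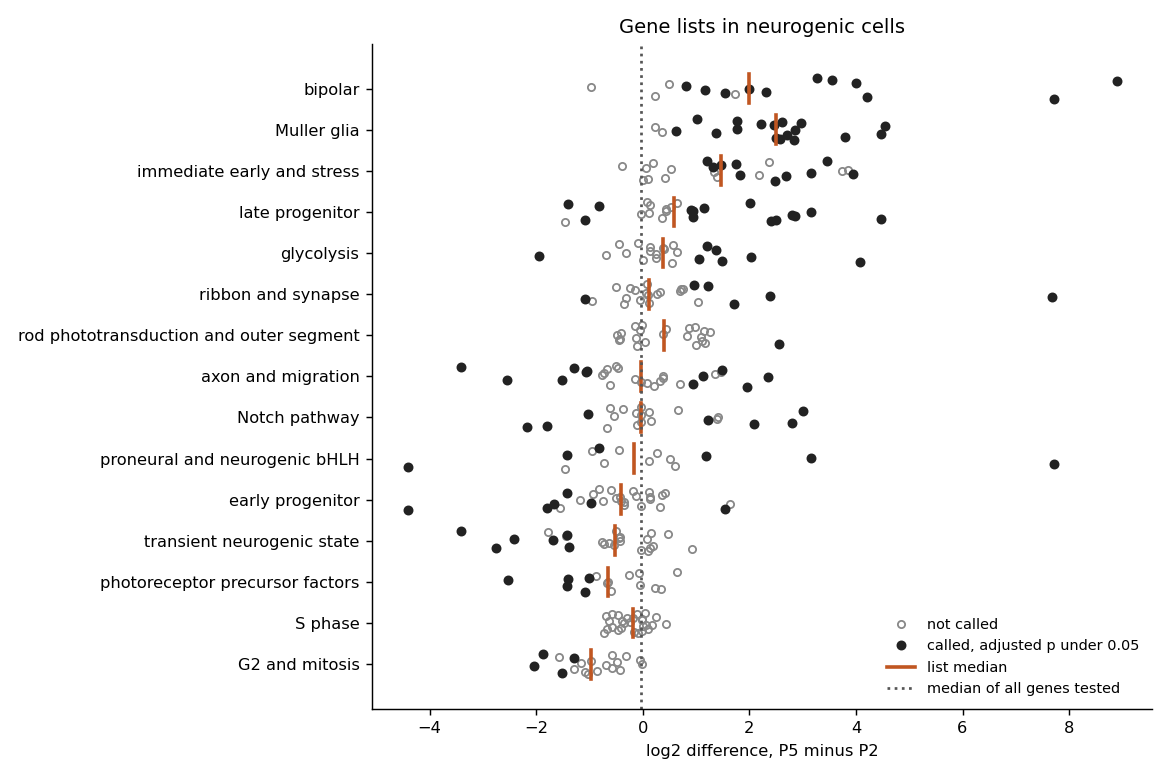
Log2 difference between P5 and P2 neurogenic cells for each tested gene of 15 lists. Filled points are genes called by edgeR, the orange mark is the list's median and the dotted line the median of all genes at -0.03, and the medians run from 2.50 for Müller glia and 2.00 for bipolar cells to -0.97 for G2 and mitosis.

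Genes of G2 and mitosis were called lower above the share of all genes, while genes of S phase gave no call by edgeR. Of 40 genes of G2 and mitosis 19 were tested, 4 were called lower and none higher, against 2.61% of all genes lower, and the median was -0.97. At an unadjusted p under 0.05 there were 12 of the 19. Cks2, a subunit of the cyclin-dependent kinase, led them from 71.4 ± 28.2 to 16.9 ± 3.56 CPM (log2 -2.05, adjusted p = 0.000612), and Top2a, Cdc20 and Pttg1 were the others. Their summed level was low at both ages, 382 to 504 CPM at P2 and 212 to 342 CPM at P5, against 1826 to 9308 CPM in P2 and 369 to 4083 CPM in P5 progenitors. In rods it was 356 to 461 CPM at P2 and 208 to 338 CPM at P5. No gene of 27 tested for S phase was called by edgeR (6 at an unadjusted p under 0.05), with a median of -0.19. DESeq2 called 1 lower, against 514 of all 11984 genes. Without P2 control 1 edgeR called 3 lower, against 669 of 12208. In cluster 11 it called 2 lower, against 3.68% of genes there. Mki67 differed by -0.48 (adjusted p = 0.590). Cyclin D1 (Ccnd1), which drives entry into the cycle, went the other way, from 84.5 ± 17.7 to 246 ± 91.2 CPM (log2 1.54, adjusted p = 0.00509). In cells of the authors' cluster 4, which holds most neurogenic cells, Ccnd1 stood at 21.0 ± 3.05 and 25.0 ± 6.34 CPM and was not called (log2 0.14, adjusted p = 0.775), and in cluster 11 it rose from 277 ± 61.7 to 571 ± 218 CPM (log2 1.02, adjusted p = 0.0202).

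Of 27 early progenitor genes tested 1 was called higher, Ccnd1, and 5 were lower, against 6.1% and 2.61% of all genes, with a median of -0.41. Igf2bp1, an RNA-binding protein of young progenitors, fell from 77.6 ± 8.01 to 24.3 ± 9.70 CPM (log2 -1.66, adjusted p = 0.00137). The early progenitor marker Sfrp2 (4.06 ± 0.990 and 1.95 ± 1.53 CPM, adjusted p = 0.290) and Fgf15 (4.32 ± 2.09 and 1.29 ± 0.955 CPM, adjusted p = 0.111) were scarce at both ages. Sfrp2 passed at 0.0485 without P5 control 3, and Fgf15 at 0.0457 with the replicate number as a block. In the list of heterochronic and RNA-binding genes, which includes Igf2bp1, 23 were tested, 1 was called higher and 5 lower, against the same shares of all genes, and the median was -0.13. The TALE homeobox genes Meis1 and Meis2, which titles of other libraries name, were not called by edgeR: Meis1 averaged 179 ± 78.1 and 135 ± 23.4 CPM (adjusted p = 0.403) and Meis2 437 ± 133 and 194 ± 96.0 CPM (adjusted p = 0.0634). DESeq2 called Meis2 lower (adjusted p = 0.0112), as did edgeR without P2 control 4 (0.0490), without P5 control 1 (0.0268), without the filter on low counts (0.0414) and with the library whose barcodes carry a P2 control's name in place of P2 control 1 (0.0296). GFP itself averaged 27993 ± 15043 CPM at P2 and 13867 ± 13550 at P5 (adjusted p = 0.372), with 34128 CPM in P5 control 1 against 5674 to 8267 in the other P5 libraries, and fell by 1.95 on the log2 scale without that library (adjusted p = 0.0396).

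A minority of genes of the transient neurogenic state fell. Stmn2, a microtubule regulator of growing axons, went from 57.7 ± 26.9 to 5.29 ± 3.92 CPM, without overlap (log2 -3.41, SE 0.50, adjusted p = 0.00114). Pkib, an inhibitor of protein kinase A, stood at 65.2, 51.2, 143 and 113 CPM at P2 and at 15.3, 8.26, 25.2 and 20.5 CPM at P5 (log2 -2.41, SE 0.38, adjusted p = 0.00178). The protocadherin Pcdh17 fell by 1.69 (adjusted p = 0.000609) and Sox11, a factor of immature neurons, by 1.42 (adjusted p = 0.0101). In the list of the transient neurogenic state 24 of 28 genes were tested, 6 fell and none rose, against 2.61% of all genes lower, with a median of -0.53. Gap43, a protein of growth cones, fell by 1.52 (adjusted p = 0.00255), while Mapt, which encodes tau, rose from 12.9 ± 3.85 to 68.7 ± 28.3 CPM (log2 2.35, adjusted p = 0.000609) and the adhesion molecule Cntn1 rose by 1.95 (adjusted p = 0.00131). In cluster 11 Gap43 differed by -0.11 and was not called (adjusted p = 0.926). Of 27 tested genes of axons and migration 5 were called higher and 6 lower, against 6.1% and 2.61% of all genes, with a median of -0.03.

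Some genes of later neuronal function rose. In the ribbon and synapse list 5 of 23 tested genes were called higher and 1 lower, against 6.1% and 2.61% of all genes, with a median of 0.12. Rims1, an active-zone scaffold, rose by 2.39 (adjusted p = 0.00318) and Cacna2d4, a subunit of the ribbon's calcium channel, by 1.72 (adjusted p = 0.000271). Pcp4, a calmodulin-binding protein of bipolar cells, stood at 0.955, 0.806, 0.477 and 1.87 CPM at P2 and at 516, 267, 47.3 and 68.3 CPM at P5 (log2 7.68, SE 0.89, adjusted p = 0.000292), and rose by 6.89 without P5 control 1. In rods Pcp4 went from 2.82 ± 2.43 to 19.8 ± 22.2 CPM and in amacrine cells from 3.54 ± 2.81 to 29.1 ± 19.3 CPM, neither called. The cyclic nucleotide channel Cnga1 was the single called gene of 22 tested for rod phototransduction (log2 2.56, adjusted p = 0.00608, median 0.41), at no more than 15.3 CPM in any library. With P2 control 1 left out, 3 genes of that list were called higher, against 962 of all 12208 genes. The sodium-calcium exchanger Slc24a2 was the single called gene of 8 tested for cones, and that list's median was 0.35.

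Several genes of early response rose. Fos stood at 29.3, 21.4, 57.3 and 67.0 CPM at P2 and at 1178, 425, 616 and 476 CPM at P5 (log2 3.95, SE 0.44, adjusted p = 0.000231). P5 control 1, the library with the highest mitochondrial share, was the highest, and without overlap all P5 libraries were above all P2 libraries. The nuclear receptor Nr4a1 rose by 3.46 (adjusted p = 0.000398) and Fosb by 3.16 (adjusted p = 0.00234). Of 23 immediate early and stress genes tested 10 rose and none fell, against 6.1% of all genes higher, with a median of 1.46. Their sum was 2471 to 3318 CPM at P2 and 4443 to 7527 CPM at P5 in neurogenic cells, and 1866 to 2359 and then 2299 to 4860 CPM in amacrine cells. Handling time and dissociation were not tested. Of 21 glycolysis genes 6 were called higher and 1 lower, Hk2, against 6.1% and 2.61% of all genes, and 14 were not called, with a median of 0.37. In cluster 4 a single one was called higher, against 3.84% of all genes there. Gapdh rose from 390 ± 7.29 to 811 ± 120 CPM (log2 1.06, adjusted p = 0.00410) and the hexokinase Hk1 from 9.53 ± 3.63 to 38.0 ± 13.7 CPM (log2 2.03, adjusted p = 0.00124). The 13 tested hypoxia genes (median -0.31), 48 cytosolic ribosomal protein genes (-0.65) and 13 mitochondrial genes (0.49) gave no call by edgeR, with 3, 29 and 2 at an unadjusted p under 0.05. DESeq2 called 18 ribosomal genes lower and none of the others, against 514 of all 11984 genes lower. Without P2 control 1 edgeR called 23 ribosomal and 3 mitochondrial genes lower, against 669 of all 12208 genes lower. The ribosomal median moved to -0.50 without TMM scaling.

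The genes with the largest changes at a mean log2 CPM of at least 5 included several described nowhere above. Cryab, a small heat shock protein of lens and glia that is in the pigment epithelium and lens list, stood at 0.318, 0, 0 and 0.234 CPM at P2 and at 268, 275, 35.3 and 42.7 CPM at P5 (log2 9.20, SE 1.01, adjusted p = 0.000212), and at 10.14 without P2 control 1. P5 controls 1 and 2 held several times more of it than P5 controls 3 and 4. Zfp804b rose by 4.89 (adjusted p = 0.000190), the carbonic anhydrase-like protein Car10 by 4.48 (2.01e-05), the secreted protein Ndnf by 4.47 (3.22e-05), the syntrophin Sntb1 by 4.32 (0.000190) and Mfge8, a bridging protein for phagocytosis, by 3.75 (0.000402) or by 3.08 without P5 control 2. Car10 had 30.4, 24.6, 16.2 and 18.3 CPM at P2 and 667, 554, 318 and 490 CPM at P5, so that the ages lay far apart in every library. In amacrine cells of the same libraries Car10 stood at 7.18 ± 6.43 CPM at P2 and 105 ± 59.7 at P5, without TMM scaling.

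Further genes fell at least 4-fold. The kainate receptor subunit Grik3 went from 121, 91.5, 91.6 and 111 CPM to 27.2, 18.9, 16.1 and 26.2 CPM (log2 -2.25, SE 0.21, adjusted p = 7.25e-05). The potassium channel Kcnc2 fell by 2.24 (adjusted p = 0.00114), with its highest level, 224 CPM, in P2 control 1. Glcci1 fell by 2.20 (0.000576), the ligand Angpt1 by 2.19 (0.00237), the LIM protein Lmo1 by 2.09 (0.00221), the factor Ebf1 by 2.07 (0.000126) and the receptor Epha8 by 2.01 (0.0269). Epha8 alone among these lost its call with 1 library left out, namely P2 control 4, P5 control 3 or P5 control 4 (adjusted p 0.0797 to 0.0850).

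Markers of other cells gave small or mixed counts. Of 14 tested amacrine and horizontal genes 4 rose and 2 fell, against 6.1% and 2.61% of all genes, with a median of -0.62. Megf10, a receptor that spaces amacrine and horizontal cells, rose from 13.1 ± 2.92 to 76.4 ± 15.5 CPM (adjusted p = 4.13e-05) and Prox1, also a bipolar gene, from 138 ± 22.4 to 270 ± 25.1 CPM (adjusted p = 0.00446), while Gad2, which makes GABA, fell from 37.6 ± 8.51 to 18.1 ± 4.95 CPM (adjusted p = 0.0132). In cluster 11 Prox1 differed by 0.15 (adjusted p = 0.728) and Gad2 by -0.88 (adjusted p = 0.0758). Of 5 ganglion cell genes Isl1 rose and Gap43 fell (median -0.72). Of 5 tested genes of pigment epithelium and lens Cryab, Crybb3 and Cryba1 rose (median 1.46), while Rpe65 stayed at 0. For microglia P2ry12 was called higher among 4 tested (median 1.09), a call lost without P2 control 1. For vessels Kdr was called higher among 2 (median -0.78), and the 1 tested erythroid gene was not called (0.07). Of the vessel list Cdh5, Rgs5 and Col1a1 had no UMI at P5. That list summed to 172 to 352 CPM in P5 neurogenic cells and to 602 to 812 CPM in P5 progenitors. The part of these cells in the results was not tested.

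The 1711 P5 and 3516 P2 cells fall into 2 of the authors' clusters, which were looked at after the results above were seen. Cluster 11 held 25.0% ± 2.46 of neurogenic cells at P2 and 38.0% ± 8.03 at P5 (n = 4), and cluster 4 the rest. Clusters were drawn from these same genes, so the values describe where the changes sit.

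Bipolar genes rose in cluster 4. There Samsn1 went from 14.3 ± 3.43 to 381 ± 99.5 CPM (log2 4.62) and Isl1 from 29.9 ± 7.32 to 254 ± 119 CPM (2.99). Otx2 stayed near 1244 ± 424 and 1212 ± 286 CPM in those cells (log2 difference -0.14, adjusted p = 0.827), and Neurod4 went from 1794 ± 744 to 1409.9 ± 355 CPM (adjusted p = 0.460). In cluster 11 Samsn1 stood at 7.88 ± 6.38 and 10.1 ± 8.28 CPM (adjusted p = 0.935). Isl1 there stood at 16.01 ± 6.05 and 6.77 ± 4.10 CPM, against the direction in cluster 4 (adjusted p = 0.0899). In cluster 4, 10 bipolar genes were called higher and none lower, against 3.84% and 2.04% of all genes there. In cluster 11 2 were higher and 2 lower, against 8.07% and 3.68%.

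Glial genes rose in cluster 11, and fewer were called in cluster 4, a difference that was not tested. Rlbp1 went in cluster 11 from 47.0 ± 21.1 to 847 ± 253 CPM (log2 4.12), Crym from 197 ± 85.4 to 2801 ± 1601 CPM (3.85) and Apoe from 352 ± 159 to 4457 ± 878 CPM (3.62). In cluster 4 Rlbp1 stood at 4.36 ± 2.64 and 9.52 ± 4.19 CPM (adjusted p = 0.237), and Crym and Apoe rose by 2.42 and 1.38. In cluster 11 15 Müller glia genes were called higher and none lower, against 8.07% and 3.68% of all genes there. In cluster 4 7 were higher and 1 lower, against 3.84% and 2.04%. Otx2 in cluster 11 fell from 975 ± 283 to 262 ± 106 CPM (log2 -1.91), Neurod1 from 596 ± 231 to 106 ± 44.4 CPM (-2.54) and Neurod4 from 424 ± 136 to 82.5 ± 39.0 CPM (-2.43). Sox2, a progenitor and glial factor, rose there from 62.1 ± 21.2 to 163 ± 45.5 CPM (1.32). At P5 cluster 11 held 571 ± 218 CPM of Ccnd1, against 360 ± 144 in progenitors, and 847 ± 253 of Rlbp1, against 1371 ± 323. Of Neurod1 it held 106 ± 44.4 CPM, against 943 ± 373 in cluster 4 and 28.0 ± 28.5 in progenitors. By these genes the authors' type name describes P5 cells of cluster 4 better than those of cluster 11.

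Atoh7, Prdm1, Dll3 and Fos moved the same way in both clusters. Atoh7 fell by 4.05 in cluster 4 and 4.33 in cluster 11, Prdm1 by 2.20 and 2.73, and Dll3 by 1.83 and 2.69. Fos rose by 3.28 and 4.36. In cluster 4 alone 421 genes were called higher and 223 lower, and in cluster 11 773 and 353. Of the 1044 genes called over all neurogenic cells 444 were called in cluster 4 and 634 in cluster 11, and 54 and 31 had the opposite sign there. The genes called over all cells and given above with a level or log2 difference were looked up where a cluster tested them. Cluster 4 alone gave no call for Ccnd1, Dtx4, Gapdh (log2 0.58), Gpr37 (0.75), Neurod1 (-0.997), Nfix (0.72), Olig2 (-0.55), Rims1 (1.26) and Rlbp1, nor for Col9a1, Id3 and Mfge8, whose sign turned. Of members named above without a value over all cells, Hes1 turned there too (-0.87, not called), and Hey2 was not called higher. Cluster 11 alone gave no call for Gad2, Gap43, Nfib (0.68), Pcdh17 (-1.05), Prox1 and Samsn1, nor for Isl1, whose sign turned. Of the bipolar list cluster 11 called 2 genes higher, against 11 over all neurogenic cells, so most members named above were not called higher there. Prdm8 was called lower there, and Pcp4 was not tested. It gave a call for Crx, Insm1, Otx2 and Neurod4, and for Dll1 (-1.06), Hes6 (-0.90) and Meis2 (-0.96), which did not pass over all cells.

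**Figure D3:**
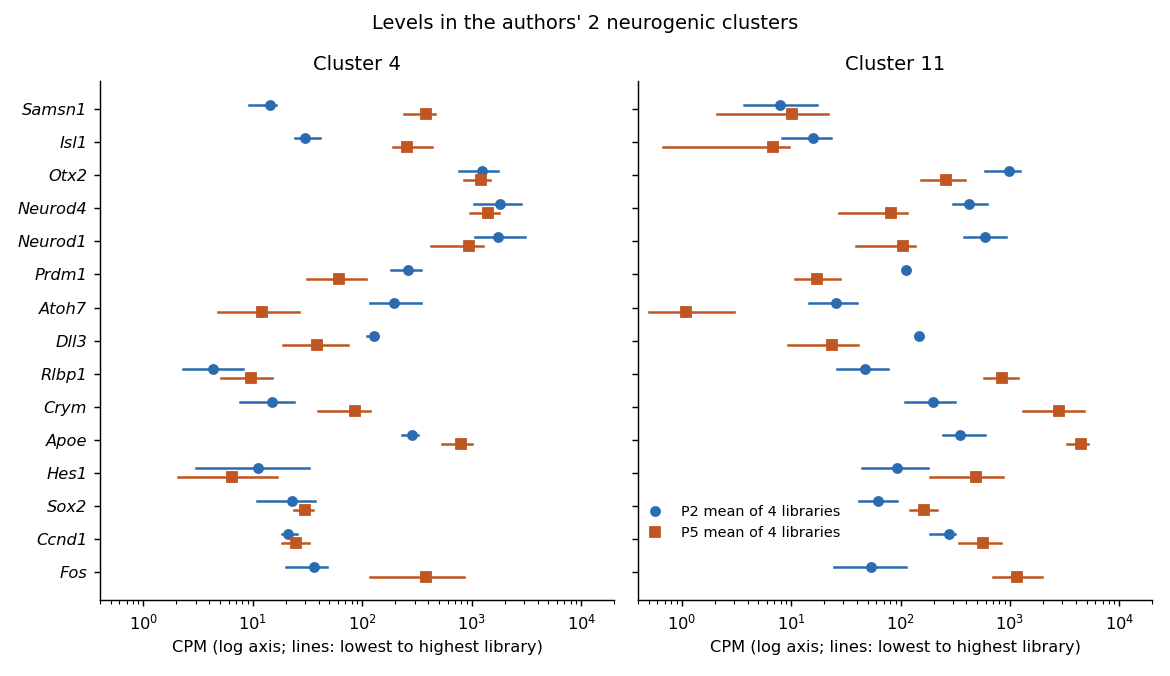
Mean level of 15 genes in the neurogenic cells of cluster 4 and of cluster 11, in CPM after TMM scaling on a log axis, for P2 and P5, with a line from the lowest to the highest of 4 libraries (the log axis cannot show 0, so the line for Atoh7 in cluster 11 at P5 stops near the left edge). Samsn1 and Isl1 separate by age in cluster 4, Rlbp1 in cluster 11, and Atoh7 and Prdm1 in both.

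Shares of cells were compared at equal depth. Each cell was thinned to 2000 UMIs and cells with fewer were left out, which kept 1724, 382, 591 and 727 cells of P2 controls 1 to 4 and 277, 344, 876 and 191 of P5 controls 1 to 4. The share of cells with a UMI of Atoh7 went from 17.7% ± 4.94 at P2 to 1.10% ± 0.603 at P5 (n = 4; 31.0% and 3.35% unthinned), against 1.47% and 0.671% in amacrine cells, so that the P5 share lay near that background. Prdm1 went from 30.8% ± 4.68 to 7.99% ± 3.67, against 9.41% and 3.25% in amacrine cells. Dll3 went from 22.2% ± 0.927 to 5.60% ± 3.60, against 2.85% and 3.75% ± 4.29 in amacrine cells, so that its P5 share too lay near that level. Neurod1 went from 79.6% ± 6.68 to 48.4% ± 13.4 and Neurod4 from 75.9% ± 5.03 to 57.6% ± 5.41. Amacrine cells, which use both, held them in 39.8% and 20.3% and in 33.3% and 36.6% of cells. The share of cells with at least 3 UMIs of the G2 and mitosis list went from 8.05% ± 2.31 to 2.74% ± 1.89, while without thinning it was 47.0% ± 17.1 and 61.2% ± 16.1, in the opposite order. In these 6 and in Olig2 and Prdm8 the P5 libraries lay wholly on one side of the P2 libraries (exact permutation p = 0.0286 each, the smallest possible, and 0.0540 after Benjamini-Hochberg adjustment over 17 measures), so that none passes the adjusted threshold in a design of this size. The Prdm8 shares, 3.28% and 6.19%, lay below those of amacrine cells, 5.40% and 16.9%. Otx2 had a UMI in 82.8% ± 8.12 and 63.3% ± 8.19 of cells (exact permutation p = 0.0571).

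**Figure D4:**
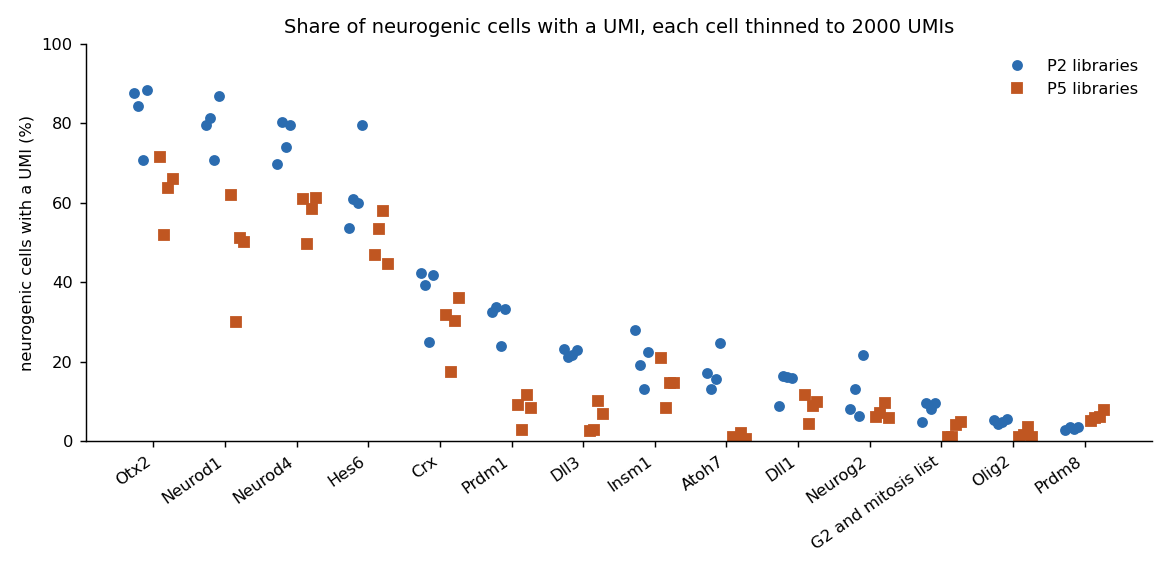
Percent of neurogenic cells with at least 1 UMI of each of 13 genes, or at least 3 UMIs of the G2 and mitosis list, in each library after thinning every cell to 2000 UMIs. Prdm1 falls from 30.8 to 7.99% and Atoh7 from 17.7 to 1.10%, with all P5 libraries on one side of the P2 libraries.

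In single thinned cells Samsn1, Rlbp1 and Apoe differed in whether Otx2 was found beside them. Samsn1 had a UMI in 30.8% ± 7.23 of P5 cells with Otx2 and in 7.29% ± 4.75 of those without it (n = 4). Rlbp1 was found in 8.84% ± 2.99 of P5 cells with Otx2 and in 61.8% ± 15.1 of those without. Apoe was found in 68.7% ± 12.7 of P5 cells with Otx2 and in 89.7% ± 4.78 of those without. In P5 amacrine cells the thinned shares were 2.29% for Samsn1, 2.42% for Rlbp1 and 28.2% for Apoe, the last up to 53.7% in P5 control 3. For each of these 3 genes the P5 libraries' shares in cells with and without Otx2 did not overlap. At P2 they overlapped for all 3. The P2 shares with and without Otx2 were 1.58% and 0.702% for Samsn1, 2.43% and 5.03% for Rlbp1, and 36.0% and 37.3% for Apoe. Otx2 also differed between P5 cells of clusters 4 and 11 (1212 and 262 CPM), so this split is not separate from that of the clusters. At P2 Prdm1 was found in 40.6% ± 8.36 of cells with Atoh7 and in 28.5% ± 4.09 of those without. The ranges overlap between libraries. In P2 controls 1 to 4 the share was 40.9, 44, 29.0 and 48.6% with Atoh7. It was 30.7, 32.2, 22.9 and 28.3% without, lower within each library, and this pairing was not tested. A UMI missing in a thinned cell does not show that the RNA was absent.

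The age difference of neurogenic cells was then set against that of progenitors of the same libraries, in 1 model with library as a block. The age differences diverged for 1825 of 13320 genes (13.7%), 1001 more positive in neurogenic cells and 824 more negative, and without TMM scaling for 1483 and 485. The count fell to 823 without P2 control 1, to 1088 and 1197 without P2 controls 2 and 3, and to 1146 and 1153 without P5 controls 2 and 4. Of 696 genes that rose in neurogenic cells and were tested in progenitors 423 were called higher there too, and of 298 that fell 146 were called lower there too. In all, 1411 genes rose (10.7%) and 706 fell (5.34%) with age in progenitors.

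For Samsn1 and Isl1 the age difference was more positive in neurogenic cells than in progenitors. Samsn1 stood at 9.77 ± 4.02 CPM at P2 and 2.77 ± 3.13 at P5 in progenitors, so that its age difference was 5.41 larger in neurogenic cells (interval 4.10 to 6.72, adjusted p = 0.000346), or 7.01 without P5 control 3. For Isl1 the difference was 2.95 (adjusted p = 0.00459), or 3.73 without P5 control 1. In cluster 11 of the neurogenic cells neither gene was called higher (log2 0.11 for Samsn1 and -1.44 for Isl1). Of 17 bipolar genes tested 8 were more positive in neurogenic cells and 1 more negative, against 7.52% and 6.19% of all genes, with a median of 3.02 against 0.02 for all genes.

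Otx2 and Neurod4 fell in progenitors (adjusted p = 0.0251 and 0.0154), and their age difference there was more negative than in neurogenic cells, where neither passed. Otx2 went from 154 ± 42.9 to 23.8 ± 27.5 CPM in progenitors (log2 -2.65), 2.38 apart from neurogenic cells (1.33 to 3.44, adjusted p = 0.00881), or 3.19 without P5 control 3. Neurod4 went from 89.2 ± 48.4 to 7.75 ± 9.84 CPM, 2.59 apart (adjusted p = 0.00876), or 3.77 without the same library. In cluster 11 of the neurogenic cells Otx2 and Neurod4 fell too, by 1.91 and 2.43, and in cluster 4 neither was called. Of 16 proneural genes 7 were more positive in neurogenic cells and none more negative, against 7.52% and 6.19% of all genes, with a median of 1.45.

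Prdm1, Apoe and Fos also moved the same way in progenitors. Prdm1 fell in progenitors by 2.55 (difference 0.06, interval -0.518 to 0.631), Apoe rose by 2.93 (difference -0.11, -0.742 to 0.531) and Fos rose by 3.46 (difference 0.32, -0.273 to 0.905). The adjusted p of these 3 differences were 0.928, 0.861 and 0.472, and the intervals bound how far the cell types can differ. Atoh7 fell by 5.27 in progenitors (difference 1.14, -0.987 to 3.27, adjusted p = 0.473), but that difference rests on single libraries. It was 5.03 (adjusted p = 0.391) without P5 control 3, above the upper end of the interval, and passed at 1.65 (adjusted p = 0.0271) without P2 control 4. DESeq2 gave 2.11 (adjusted p = 0.266). Rlbp1 rose in both, by 2.40 in progenitors from a level of 260 ± 99.1 CPM, and further in neurogenic cells by 2.16 (1.51 to 2.81, adjusted p = 0.00102). At P5 neurogenic cells still held less of it, 380 ± 190 against 1345 ± 262 CPM in progenitors without TMM scaling. The neurogenic log2 rise of Rlbp1 was 4.12 in cluster 11 and 1.06 in cluster 4, where it was not called (adjusted p = 0.237). Neither cluster alone was set against progenitors. Of 25 immediate early and stress genes 9 were more negative in neurogenic cells, against 6.19% of all genes, and none more positive, with a median of -0.49. Among glial genes 6 of 22 were more positive and 1 more negative, against 7.52% and 6.19% of all genes.

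**Figure D5:**
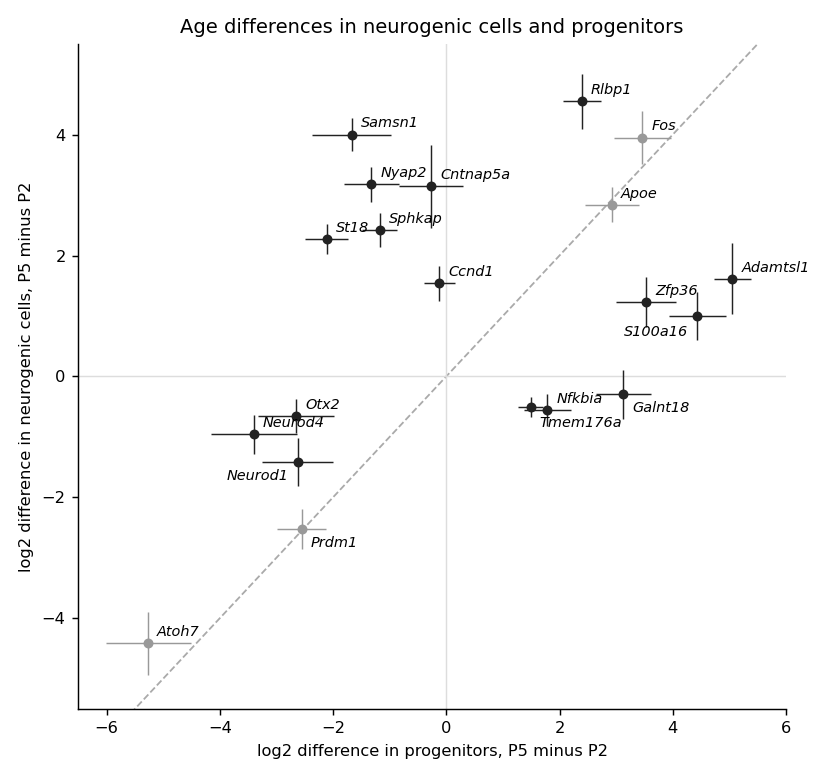
Log2 difference between P5 and P2 in neurogenic cells against the same difference in progenitors for named genes, with standard errors and a dashed line of equality. Dark points, whose 2 differences diverged by the test, include Samsn1 and Nyap2 above the line, while Prdm1, Apoe and Fos lie near it in grey.

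Rods, the type whose summed neurogenic markers were closest, shared some of these age differences and not others. The age differences of rods and neurogenic cells diverged for 2651 of 13899 genes (19.1%), and for 1709 to 1748 when P2 control 1, 3 or 4 was left out. Of 34 genes of rod phototransduction 26 were more negative in neurogenic cells, against 8.57% of all genes, and none more positive, with a median of -1.85. Prdm1 stood at 559 ± 125 and 308 ± 106 CPM in rods, and fell by 1.75 more in neurogenic cells (interval of the difference -2.11 to -1.40, adjusted p = 0.000425). Of 627 genes that rose in neurogenic cells and were tested in rods 100 were called higher there too. Of 303 that fell 104 were called lower there too. In rods 806 of all 13379 genes tested (6.02%) were higher and 643 (4.81%) lower.

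Amacrine cells gave few calls of their own, 6 higher and 1 lower of 11683 genes, and differed from neurogenic cells in their age difference for 181 of 12828 genes (1.41%). That count ran from 47 without P2 control 1 to 436 without P5 control 3, and it moved by over 1.5 times for every library left out. P5 controls 1 to 4 held 866, 155, 155 and 88 amacrine cells, so few calls do not show that these cells changed little. Rlbp1 rose by 3.31 more in neurogenic cells (2.49 to 4.14, adjusted p = 0.00324). Fos rose by 2.78 more in neurogenic cells (adjusted p = 0.0181), a call lost without any of P2 controls 1 to 3 or P5 controls 2 and 4 (adjusted p 0.0511 to 0.0743).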

How the data were processed

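Single-cell RNA was measured in 8 control libraries, 4 per age. The authors deposited a table of UMI counts per gene and cell, made with Cell Ranger and Seurat 5 on mm10 with a GFP locus, per the submitters' processing notes and the labels' protocols, and a cell table with type, cluster and library. The deposited percent of mitochondrial counts in that cell table is the authors' value per cell. Counts of the 51427 cells with a library start used here were read, and 27582 other cells enter no comparison. Counts were summed per library and cell type, and tested in edgeR 4.0.16 (R 4.3.3, limma 3.58.1) with its low-count filter, TMM factors, the quasi-likelihood test and Benjamini-Hochberg adjustment at 0.05. Standard errors are the log2 difference over the root of F, and 95% intervals use the fit's degrees of freedom. Differences between cell types were fitted with library as a block. Single values were compared by two-sided exact permutation in scipy 1.17.1 (70 splits, smallest p 0.0286). Doublets were scored with Scrublet in scanpy 1.11.5 (Python 3.11.15), figures used matplotlib 3.10.9, and DESeq2 1.42.0 was an alternative. The test scripts were tested on simulated data. UMI intervals and floors cover counting error only.

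The 26 gene lists, the genes named whatever their result and the comparison itself were chosen with earlier results of these data known. Named are also up to 12 called genes per direction with the largest change, no overlap between ages and a log2 CPM averaging 5 or more, up to 6 called members per list and direction, and the 6 largest differences per direction from each other cell type. Some genes that these rules name are not reported here. Genes with few UMIs at P2 (Scgn, Bhlhe23) are given by counts. Promoter windows come from a RefSeq table of build GRCm38.p6, with gene positions from the GENCODE annotation of mm10.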

Additional observations from a re-analysis of the deposited data

Results flagged for a closer look

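Of 200 groups of 4 libraries, 22 held 1 library whose gap to the nearest other exceeded Dixon's 95% critical value, where chance gives about 1 in 20. At P2, control 4 stood highest for Neurod1 (2619 CPM), Rlbp1 (28.8), Col9a1 (8.90) and Epha8 (107) and lowest for Ebf1 (46.4). P2 control 1 was highest for Kcnc2 (224 CPM) and lowest for Car2 (68.1) and for the share of cells with Dll1 (8.93%). P2 control 2 was highest for Igf2bp1 (89.5 CPM) and Hk1 (14.9). P2 control 3 was highest for Ndnf (5.25 CPM) and Pcdh17 (70.6) and lowest for the share of cells with Prdm1 (23.9%).

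At P5, control 2 was lowest for Neurod1 (220.3 CPM) and Crx (108) and highest for Sntb1 (358), Notch2 (37.7) and Mfge8 (417). P5 control 3 had the lowest median of UMIs per cell, 7686, the highest Sfrp2 (4.22 CPM) and the highest share of cells with Olig2 (3.65%). P5 control 1 held the most GFP, 34128 CPM.

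In 45 gene comparisons the age difference of neurogenic cells differed from that of another cell type by edgeR's interaction test. Against progenitors the log2 difference was more positive in neurogenic cells for Samsn1 (5.41), Pcp4 (5.37), Nyap2 (4.41), St18 (4.31), Cntnap5a (3.60), Sphkap (3.57), Isl1 (2.95), Neurod4 (2.59), Otx2 (2.38), Rlbp1 (2.16), Ccnd1 (1.68) and Neurod1 (1.45). It was more negative for Galnt18 (-3.33), S100a16 (-3.30), Adamtsl1 (-3.25), Nfkbia (-2.31), Zfp36 (-2.07) and Tmem176a (-1.98). The Neurod1 call was lost when any library other than P5 control 3 was left out (adjusted p 0.0576 to 0.123), and without P5 control 3 the Neurod1 difference was 2.05.

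Against rods the difference was more positive for Cryab (5.89), Pcp4 (4.62), Ass1 (4.09), Cntnap5a (4.05), Id3 (3.84), Kcnma1 (3.48), Fos (3.31) and Rlbp1 (3.08). It was more negative for Gm26883 (-2.73), Rcvrn (-2.51), Pex5l (-2.39), Tshz2 (-2.38) and Prdm1 (-1.75). Rcvrn is a photoreceptor gene. The calls of Cryab (adjusted p = 0.0554) and Rcvrn (0.0852) were lost without P2 control 1. Without that library the Pcp4 difference was 5.32, and without P5 control 1 those of Cntnap5a, Id3 and Rcvrn were 4.69, 4.48 and -3.14.

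Against amacrine cells it was more positive for Gpr37 (4.51), Pcp4 (4.41), Prr16 (4.33), Zfp804b (4.23), Id3 (4.07), Sntb1 (4.04), Rlbp1 (3.31) and Fos (2.78), and more negative for Lgr5 (-5.15), Ebf1 (-4.004), Lrfn5 (-3.68), Tfap2c (-3.36), Slc2a13 (-3.07) and Kcnc2 (-3.06). Of these, Sntb1, Lrfn5, Id3, Prr16, Tfap2c, Zfp804b, Slc2a13 and Fos each lost the call without at least 1 single library, among them P2 control 1 for all but Id3. Without P5 control 1 the differences of Gpr37, Id3, Prr16 and Sntb1 were 5.43, 5.42, 4.98 and 5.68, and without P2 control 1 that of Sntb1 was 4.67.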

How the results depend on the processing

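The called count was 1426 in DESeq2, 1160 without a filter, 931 at equal library depth and 1024 without Scrublet doublets, and 721 (P5 control 2) to 1631 (P2 control 1) with 1 library left out. It moved to 1711 with the library whose barcodes carry a P2 control's name in place of P2 control 1. Added after seeing the data, it moved to 224 in cells of 4000 to 10000 UMIs (7 libraries) and 644 in cluster 4, and was 1463 without both replicate 1 libraries. Deviations of libraries with equal replicate numbers correlated at 0.25, 0.07, 0.06 and -0.09, and those with unlike numbers at -0.24 to 0.20. So few values cannot decide whether the numbers pair libraries. A replicate block gave 1040 calls (Nfix lost, Fgf15 gained among the genes described). The fit over all 20 libraries was not run.

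The difference in neurogenic share ran from -4.55 to -0.627 percentage points with 1 library left out and was 15.3 over neurogenic and progenitor cells. With 1 library left out, the calls of divergence ran from 823 to 2647 for progenitors, 1709 to 3067 for rods and 47 to 436 for amacrine cells, the last also 434 in DESeq2 and 435 without a filter. Without a filter the progenitor split was 1613 to 591.

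Signs turned as follows, and the cause was not tested. In cluster 4 Hes1 was -0.87, Id3 -0.52, Col9a1 -0.36 and Mfge8 -0.29, and in cluster 11 Isl1 was -1.44 and Prdm8 -2.58 (adjusted p = 0.00544). In cells of 4000 to 10000 UMIs Meis1 was 0.018 and Nrl 0.39, and Neurog2 ran from -0.67 to 0.24 with 1 library left out. Without thinning the differences in share were 0.338 for Crx, 5.86 for Dll1, 14.2 for G2 and mitosis, 2.63 for Hes6 and 3.67 for Insm1. Nr2e3, at -0.047 as reported, was 0.44 with the swapped library, 0.36 in cells of 4000 to 10000 UMIs, 0.071 in cluster 4, 0.0074 at equal depth, 0.034 without TMM, 0.031 with the replicate block, -0.18 to 0.31 with 1 library left out, 0.40 without Scrublet doublets, 0.19 without both replicate 1 libraries and 0.16 without the highest doublet scores. The Apoe difference from progenitors was 0.032 without TMM, and with 1 library left out it ran from -0.30 to 0.15 (positive without P2 control 3 or P5 control 1) and that of Prdm1 from -0.11 to 0.28 (negative without P2 control 1 or P5 control 4). Scrublet found 0 doublets in P2 control 2 and 1 in P5 control 1, so its threshold failed in both and marked no neurogenic cell there.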
